A study of Mus musculus with 5 samples.

Results

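A set of 33 genes that p53 is known to switch on was followed in RNA-seq libraries of mouse embryonic lung airway, from embryos with Prmt5 deleted in the epithelium and from littermate controls. The genes were taken by symbol from a list of known p53 targets that leaves out the BCL2 family, Cdkn1a and Mdm2, and all 33 were among the 19699 entries of the deposited table. The list was drawn up with the difference between mutants and controls in these libraries already known. The members' own differences are therefore a description: to say that a member is past the threshold of the fit over all genes labels its difference against the spread of the libraries and is not evidence about the list. The study asked how epithelial loss of Prmt5, an arginine methyltransferase that acts on histones and splicing proteins, leads to a loss of ciliated cells. The trachea and lung airway was dissected from C57 embryos at stage E13.5. There were 2 mutant libraries and 3 control libraries. The controls were labelled wild type. The mutant genotype was written with Shh beside Prmt5, without a description of the allele, and its label called the change a knockdown while the protocol described a knockout. Every library was made from the whole airway section, so cells outside the epithelium contributed RNA. The labels do not say whether a library came from 1 embryo or from several, so how far the spread between libraries is technical is not known.

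p53 is a transcription factor that is kept low in healthy cells by the ubiquitin ligase Mdm2 and accumulates when DNA, ribosome production or splicing is disturbed. It binds a response element made of a tandem pair of short repeats and raises transcription of genes that stop the cell cycle, repair DNA, limit oxidative stress and growth signalling, or prepare the cell to die. Death receptors at the cell surface are one arm of this programme, and the caspases and their adaptors are another.

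The promoters were searched for the p53 response element. The list holds known p53 targets, so a larger share of matches than over all genes may follow from how it was chosen. RefSeq promoter windows (GRCm38.p6, from 250 bases before to 50 bases after each start site) were found for 25 of the 33 genes, 34 windows in all since some genes have several annotated starts. Entries were missing for Tnfrsf10b, Perp, Trp53inp1, Ddb2, Xpc, Rrm2b, Zmat3 and Ptprv. Each window was searched on both strands for the 20-base p53 consensus of 2 adjoining repeats, with the invariant C and G of each repeat required. With up to 2 mismatches, 5 of the 25 genes (20.0%) held a match, against 106 of all 27025 genes in the promoter table (0.392%). These 5 windows are printed 5′ to 3′ on the gene's strand with the match in capitals, because they show where the element lies in genes whose levels are given next. For Gtse1 and Rps27l, which have more than 1 start, the window is the one that holds the match. Positions of a match count from 0 at the start-site base of the window shown.
Ccng1 (chr11:40755237-40755536, minus strand, match from -195): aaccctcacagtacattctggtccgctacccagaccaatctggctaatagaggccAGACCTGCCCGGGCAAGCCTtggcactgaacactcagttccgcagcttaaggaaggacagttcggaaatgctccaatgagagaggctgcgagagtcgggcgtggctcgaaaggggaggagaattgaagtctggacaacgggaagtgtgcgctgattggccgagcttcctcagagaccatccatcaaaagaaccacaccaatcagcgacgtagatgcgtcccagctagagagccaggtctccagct
Gtse1 (chr15:85859696-85859995, plus strand, match from -1): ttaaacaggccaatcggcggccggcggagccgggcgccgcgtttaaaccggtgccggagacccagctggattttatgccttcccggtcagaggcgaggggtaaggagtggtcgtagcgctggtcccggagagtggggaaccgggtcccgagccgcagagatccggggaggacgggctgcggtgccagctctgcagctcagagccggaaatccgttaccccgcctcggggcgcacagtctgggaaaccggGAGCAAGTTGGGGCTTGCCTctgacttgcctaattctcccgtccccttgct
Rps27l (chr9:66946163-66946462, plus strand, match from -117): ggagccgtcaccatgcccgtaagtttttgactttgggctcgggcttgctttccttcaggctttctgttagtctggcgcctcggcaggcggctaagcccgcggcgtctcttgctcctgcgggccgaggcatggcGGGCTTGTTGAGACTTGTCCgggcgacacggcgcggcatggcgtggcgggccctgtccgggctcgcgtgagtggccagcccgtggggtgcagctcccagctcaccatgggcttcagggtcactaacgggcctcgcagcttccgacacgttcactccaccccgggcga
Zfp365 (chr10:67912613-67912912, minus strand, match from -63): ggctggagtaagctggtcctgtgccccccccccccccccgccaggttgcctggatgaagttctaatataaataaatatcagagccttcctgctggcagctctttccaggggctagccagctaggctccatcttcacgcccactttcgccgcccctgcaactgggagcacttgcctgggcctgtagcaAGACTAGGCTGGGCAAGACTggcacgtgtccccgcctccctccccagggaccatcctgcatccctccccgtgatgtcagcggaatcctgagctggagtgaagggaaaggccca
Ckap2 (chr8:22185770-22186069, minus strand, match from -203): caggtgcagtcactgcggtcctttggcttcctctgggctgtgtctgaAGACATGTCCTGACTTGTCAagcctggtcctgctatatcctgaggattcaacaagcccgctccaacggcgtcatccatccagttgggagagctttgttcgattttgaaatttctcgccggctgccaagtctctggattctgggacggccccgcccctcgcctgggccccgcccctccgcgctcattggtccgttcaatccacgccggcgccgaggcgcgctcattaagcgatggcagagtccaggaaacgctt

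The matches in Ccng1, Gtse1 and Rps27l differed from the consensus at 1 base, and those in Zfp365 and Ckap2 at 2 bases. In the windows shown, the Gtse1 match ran across the start site and the other 4 lay upstream of it. For Gtse1 and Rps27l that start is the later of 2. Their matches lie inside the annotated gene, which begins at base 85859745 for Gtse1 and 66946086 for Rps27l. At 3 mismatches Aen, Sesn1 and Tigar joined them, which made 8 of 25 genes (32.0%) against 1.63% of all genes. Their 20-base matches are shown with the core of each repeat in capitals.
Aen: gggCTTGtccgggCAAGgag
Sesn1: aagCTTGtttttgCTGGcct
Tigar: ggtCTAGctctggCAAGact
The windows of the members were rich in CpG, with a median of 21 CpG and 61.3% GC against 7 CpG and 52.7% GC over all genes of the table. The comparison of matches took no account of this difference, and elements outside the windows were not searched. A match describes letters in the window, and binding of p53 was not measured here.

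**Figure D1:**
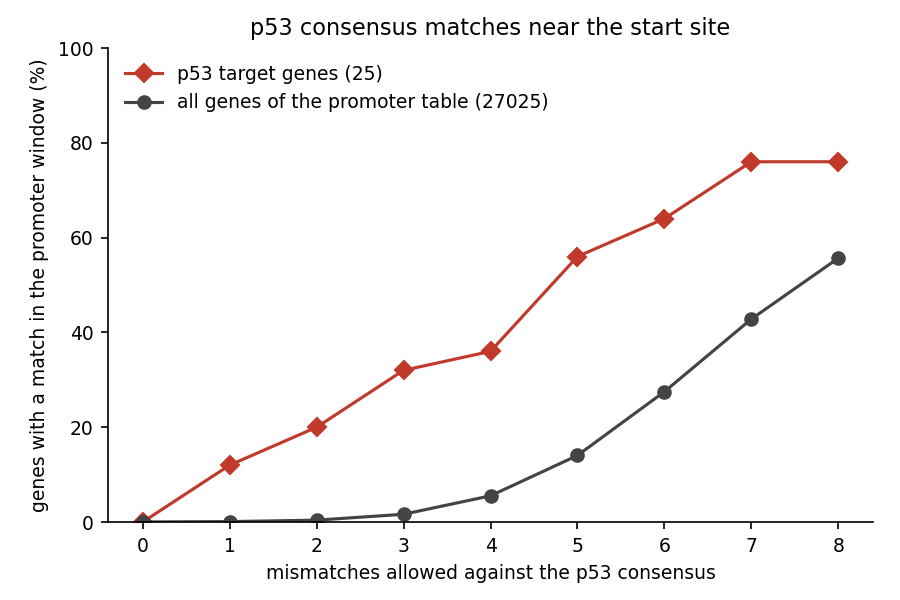
Percent of genes with a match to the p53 consensus in the promoter window (y axis) against the number of mismatches allowed (x axis), for the 25 p53 targets with a window and for all 27025 genes of the promoter table. At 2 mismatches the shares were 20.0% and 0.392%, and at 3 mismatches 32.0% and 1.63%.

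The libraries held 15652503 to 18682463 reads. Prmt5 itself had 23.7 and 20.1 FPKM in the mutants against 28.7, 26.4 and 25.8 FPKM in the controls. Both mutants lay below all controls, with a log2 change of -0.29 (SE 0.12), a limma adjusted p of 0.234 and an exact permutation p of 0.1, the smallest that 10 regroupings allow. The groups differed in embryo sex: Xist had 0.0673 and 0.289 FPKM in the mutants against 57.3, 58.1 and 115 FPKM in the controls, while the Y-linked Ddx3y had 12.0 and 10.8 FPKM in the mutants against 9.91, 6.70 and 2.54 FPKM in the controls. Every control thus held both Xist and Ddx3y RNA, as tissue of male and female embryos together would. Xist was almost absent from the mutants. Summed markers of some tissues differed between the groups as well. Beside the counts of markers that follow, 24.4% of all genes tested lay below all controls and 13.2% above them. Summed epithelial markers came to 330.2 and 329 FPKM in the mutants against 300.2 to 789 FPKM in the controls, so these sums overlapped. Of 12 epithelial markers 7 lay below all controls, 1 above them and none at 0. Skeletal muscle markers came to 68.0 and 152 FPKM against 292 to 703 FPKM, with 9 of 9 below all controls and Myf5 at 0 in a library. For neurons and neural crest the sums were 50.2 and 37.0 FPKM against 64.4 to 88.4 FPKM, with 6 of 8 below. Cartilage sums were 50.8 and 41.8 FPKM against 66.0 to 88.8 FPKM, with 3 of 6 below, and mesenchyme sums 1913 and 1644 FPKM against 2002 to 2561 FPKM, with 5 of 9 below and 2 above. The heart, endothelium and blood sums, like the epithelial ones, overlapped between the groups. The part of sex and of tissue make-up in the results that follow was not tested, and in bulk tissue fewer cells of a type and less RNA per cell cannot be told apart.

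Most of the p53 targets were higher in the mutants. Of the 32 members above the filter of 1 FPKM in at least 2 libraries, 17 were past an adjusted p of 0.05 in limma, fitted across all 12838 genes tested, and all 17 were higher in the mutants. Over all genes 2.36% passed, 0.989% in this direction. No member was past it in the other direction, where 1.37% of all genes were. At an unadjusted p under 0.05 limma gave 22 members higher and 0 lower. Over all genes 2421 of 12838 had such a p in either direction, which is the background for each such count below. At the adjusted threshold voom on the recovered reads gave 18 higher (1.89% of all genes) and 0 lower. Both mutants lay above all controls in 25 members, against 13.2% of all genes, and below all controls in 2 (Rrm2b and Tigar), against 24.4%, so the groups did not overlap in 27, against 37.6%. The median log2 change was 0.89 over the members and -0.06 over all genes. Because the members were chosen on this contrast, nothing is read from these shares. The same holds for the counts by role below, beside which the same shares of all genes stand. On TPM values, where the median of all genes moved to -0.59, 12 of the 32 members lay below 0 and none of the 17 did. Gdf15 passed the filter only through the mutants, and without it the median was 0.86. The call was lost for all 17 when either mutant was left out, which leaves 1 mutant library that is assumed to vary like the controls. When the share of male RNA entered the fit, Ccng1 and Eda2r passed.

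**Figure D2:**
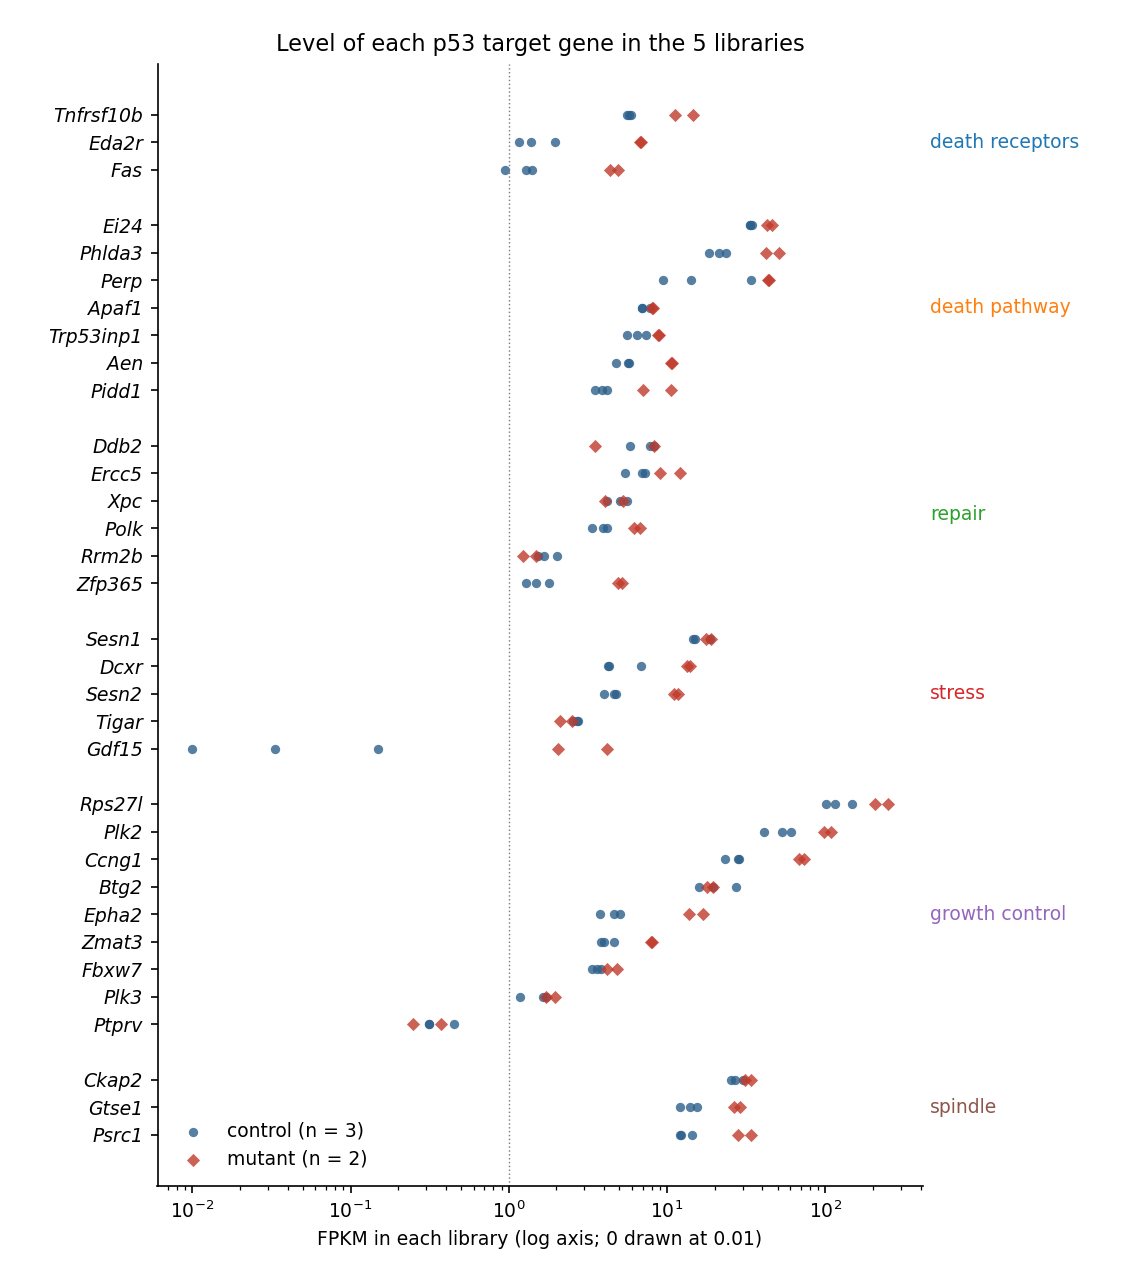
FPKM of each of the 33 genes in each library (log axis, with a value of 0 drawn at 0.01), grouped by role, with the 2 mutants as diamonds and the 3 controls as circles. Gdf15 lies at 2.04 and 4.18 FPKM in mutants and at 0.148 FPKM or less in controls, while Ddb2, Xpc, Sesn1, Btg2 and Plk3 overlap between the groups.

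The 3 death receptors were each higher in both mutants than in any control. Fas, the receptor for Fas ligand, had 4.90 and 4.36 FPKM in the mutants against 1.28, 1.40 and 0.945 FPKM in the controls. Its mean was 4.63 ± 0.378 FPKM (SD, n = 2) against 1.21 ± 0.234 FPKM (SD, n = 3), a log2 change of 1.36 (SE 0.16) on the log2(FPKM + 1) scale that applies to every change given here. Eda2r, the X-linked receptor for ectodysplasin A2, had 6.70 and 6.80 FPKM in the mutants against 1.38, 1.17 and 1.95 FPKM in the controls. The highest control was 1.67 times the lowest, and both mutants lay above all 3, with a log2 change of 1.65 (SE 0.17) that was 1.92 with the male share in the fit. Tnfrsf10b, the mouse receptor for TRAIL, had 14.5 and 11.2 FPKM in the mutants against 5.59, 5.96 and 5.76 FPKM in the controls. Its change was 1.02 (SE 0.13), and its transcript has near copies (at least 95% identity over 100 bases) in 132 other annotated genes, so reads could have been shared.

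The partners of these receptors did not pass. Of the other 9 tested genes of the death receptor list, which holds ligands, adaptors and Casp8, 0 passed in limma or voom, 0 had an unadjusted p under 0.05, and the median change was -0.01. The smallest p belonged to the TNF receptor Tnfrsf1a, with a change of 0.23 (adjusted p = 0.422), and to its adaptor Tradd, with -0.23 (adjusted p = 0.476). The ligands Fasl and Tnfsf10 and the receptor Edar were below the filter. Over all genes 2.36% passed, so 0 calls in a list this short is near that share. The same holds for the partner lists below that have 0 calls, and nothing is read from the contrast with the members.

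All 7 members of the intracellular death pathway lay above all controls in both mutants, and 3 of them were past the threshold. Phlda3, which keeps Akt from the membrane, had 50.6 and 42.0 FPKM in the mutants against 18.3, 21.3 and 23.4 FPKM in the controls, with a change of 1.10 (SE 0.14). Aen, an exonuclease that degrades DNA and RNA in dying cells, had 10.7 and 10.6 FPKM in the mutants against 4.79, 5.78 and 5.65 FPKM in the controls, with a change of 0.86 (SE 0.12). Pidd1, the scaffold that activates caspase 2, had 10.5 and 7.01 FPKM in the mutants against 3.52, 3.90 and 4.18 FPKM in the controls. Its change was 0.98 (SE 0.17), mutant 1 exceeded mutant 2, and the call was lost when any 1 control was left out.

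Perp, a desmosome protein of epithelia that p53 induces during apoptosis, had the widest spread among the death pathway genes. It had 43.7 and 44.2 FPKM in the mutants against 33.9, 9.48 and 14.1 FPKM in the controls. Control 1 came close to the mutants, the change was 1.34 (SE 0.43) and it missed the threshold; without control 1 it was 1.84 and passed. Control 1 also had the largest sum of epithelial markers, 789 FPKM. As a percent of that sum Perp came to 13.2 and 13.4 in the mutants against 4.30, 2.35 and 4.71 in the controls. Both terms of this ratio varied between libraries. Perp lay above all controls in both mutants, while the marker sums overlapped. Control 3 had a sum of 300.2 FPKM against 330.2 and 329 FPKM in the mutants. The serine protease St14, the 1 epithelial marker above all controls, had 18.2 and 17.4 FPKM in the mutants against 13.0, 9.02 and 6.67 FPKM in the controls.

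The other 3 death pathway genes had smaller differences that missed the threshold. Trp53inp1, a cofactor of p53 in apoptosis and autophagy, had 8.96 and 8.71 FPKM in the mutants against 6.46, 5.55 and 7.37 FPKM in the controls, with a change of 0.41 (SE 0.13). Ei24, a membrane protein of the endoplasmic reticulum, had 45.8 and 42.6 FPKM in the mutants against 33.5, 33.4 and 34.4 FPKM in the controls, with a change of 0.38 (SE 0.10). Apaf1, the core of the apoptosome, had 8.06 and 8.10 FPKM in the mutants against 6.92, 6.91 and 7.84 FPKM in the controls. Its highest control nearly reached the mutants, and the change was 0.15 (SE 0.11). The genes that work with Apaf1 and Pidd1 had no call: of 9 caspases and apoptosome genes, 0 passed in limma, 0 had an unadjusted p under 0.05 and 0 passed with voom. Their median change was 0.04, and the smallest p belonged to the caspase inhibitor Xiap at -0.24 (adjusted p = 0.314) and to cytochrome c, Cycs, at 0.18 (adjusted p = 0.481).

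**Figure D3:**
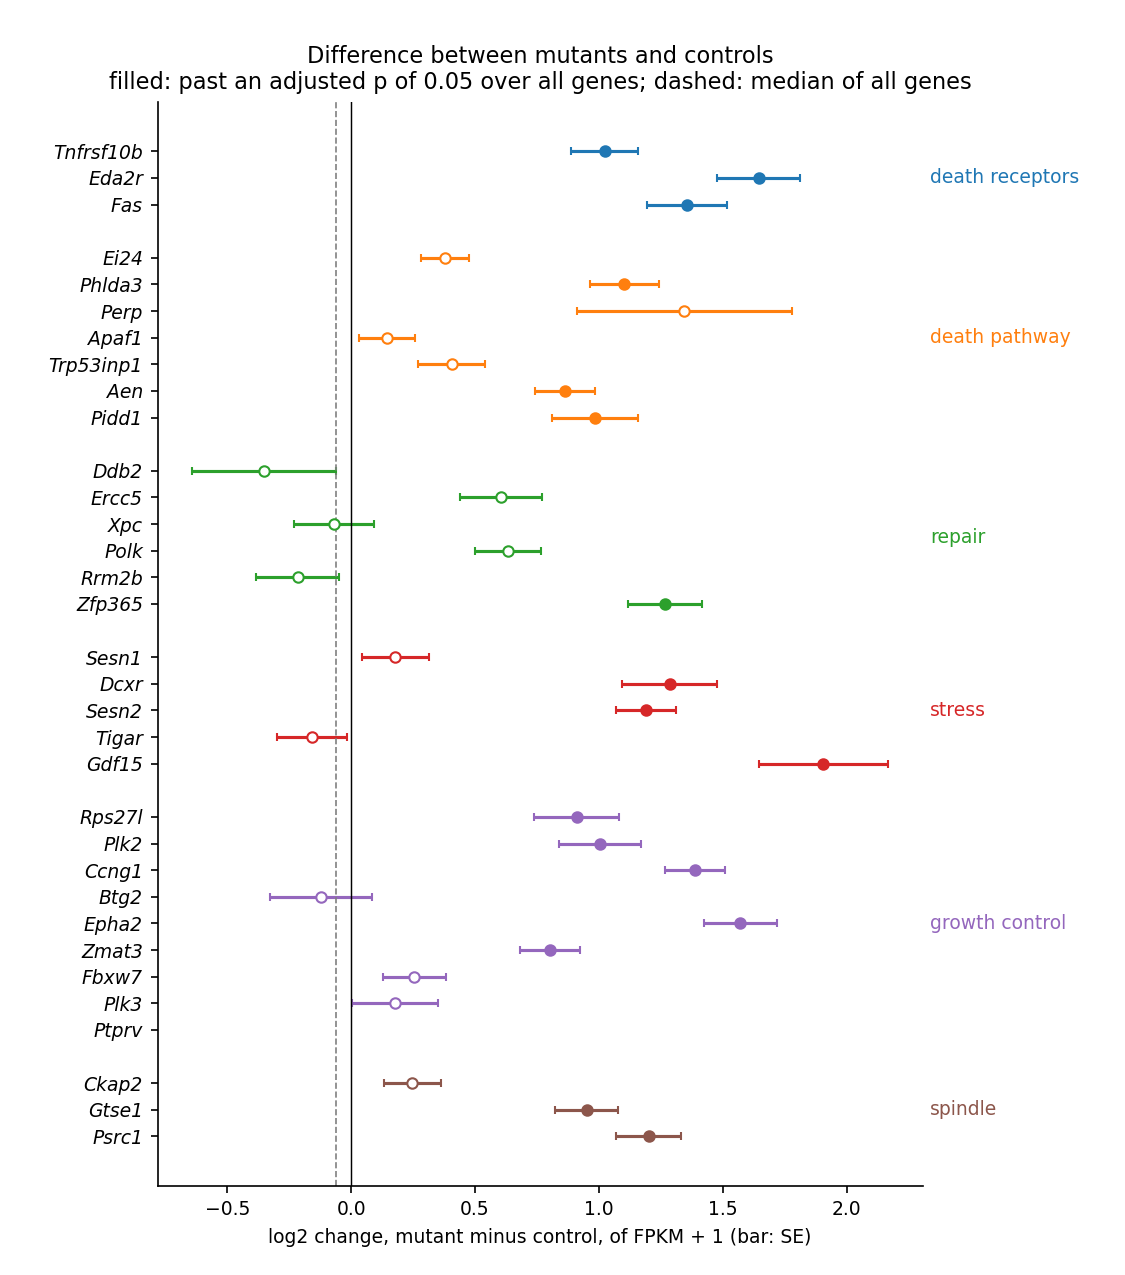
Log2 change between mutants and controls of FPKM + 1 for the 32 members above the filter, with bars for the standard error, grouped by role. Filled points passed an adjusted p of 0.05 over all genes, and the dashed line is the median of all genes at -0.06; the repair genes run from -0.35 (Ddb2) to 1.27 (Zfp365).

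The repair genes were the most divided group: 3 lay above all controls, 1 below them, 2 overlapped and 1 was past the threshold, with a median change of 0.27. Whether this group differs from the other roles was not tested. Zfp365, a zinc finger protein that protects fragile sites during replication, had 5.19 and 4.91 FPKM in the mutants against 1.79, 1.28 and 1.49 FPKM in the controls, a change of 1.27 (SE 0.15). The translesion polymerase Polk had 6.79 and 6.15 FPKM in the mutants against 4.21, 3.35 and 3.93 FPKM in the controls. Its groups were well apart, and its change of 0.63 (SE 0.13) missed the threshold here but passed with voom. Ercc5, the endonuclease that cuts on the 3′ side of a lesion in nucleotide excision repair, had 12.1 and 8.99 FPKM in the mutants against 6.97, 5.44 and 7.24 FPKM in the controls, a change of 0.61 (SE 0.17).

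The other 3 repair genes had changes below 0, all short of the threshold. Ddb2, which finds ultraviolet damage in chromatin, had 8.23 and 3.53 FPKM in the mutants against 5.85, 7.85 and 8.27 FPKM in the controls. The mutants disagreed with each other more than the controls did, with 355 reads in mutant 1 and 151 in mutant 2, and the change was -0.35 (SE 0.29). Acp2 on the opposite strand covers 23.8% of its exon bases, so without known strand use part of these reads cannot be assigned. Xpc, the general lesion sensor, had 5.28 and 4.05 FPKM in the mutants against 5.59, 4.15 and 5.06 FPKM in the controls, with overlapping groups and a change of -0.07 (SE 0.16). Rrm2b, the ribonucleotide reductase subunit that p53 induces, had 1.23 and 1.48 FPKM in the mutants against 2.01, 1.52 and 1.68 FPKM in the controls. Both mutants were below all controls by a small margin, with a change of -0.22 (SE 0.17), and 45 other genes carry near copies of its transcript. Among 16 other excision repair genes 0 passed in limma, 1 had an unadjusted p under 0.05 and voom called 1 lower. Their median change was -0.04, and the smallest p belonged to the ubiquitin ligase scaffold Cul4b at -0.48 (adjusted p = 0.065) and to the centrin Cetn2 at 0.26 (adjusted p = 0.432).

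Of the 5 stress genes 3 were past the threshold, and 1 of these, Gdf15, passed the filter only through the mutants. Gdf15, a secreted stress cytokine, had 4.18 and 2.04 FPKM in the mutants against 0, 0.0331 and 0.148 FPKM in the controls. It was nearly absent from the controls, with 0, 1 and 5 reads, and had 122 and 59 reads in the mutants. Pooled over the libraries of each group, reads per library read were 51.1 times higher in the mutants (95% exact interval 23.0 to 141). The interval covers counting error only and leaves out the spread between libraries, such as the 122 against 59 reads of the mutants. The log2 change was 1.91 (SE 0.26), which the added 1 FPKM holds down. Dcxr, a carbonyl reductase of sugar metabolism, had 13.9 and 13.46 FPKM in the mutants against 6.88, 4.29 and 4.22 FPKM in the controls. Control 1 stood above the other controls and below the mutants, the change was 1.29 (SE 0.19), and the call was lost without control 2.

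Of the sestrins, Sesn2 passed the threshold and Sesn1 did not. Sesn2, which restrains mTORC1 when amino acids are short, had 11.8 and 11.01 FPKM in the mutants against 4.73, 4.62 and 3.996 FPKM in the controls, a change of 1.19 (SE 0.12). Sesn1, its relative, had 19.00 and 17.6 FPKM in the mutants against 14.6, 15.0 and 18.8 FPKM in the controls, where control 3 lay between the mutants and the change was 0.18 (SE 0.13). Tigar, a phosphatase that turns sugar from glycolysis to the pentose phosphate pathway, had 2.50 and 2.10 FPKM in the mutants against 2.56, 2.75 and 2.70 FPKM in the controls. Both mutants lay just below the controls, with a change of -0.16 (SE 0.14). Sesn2 and Gdf15 are also targets of the integrated stress response, whose factor is Atf4. Of 13 tested genes of the Atf4 list 0 passed in limma, 1 had an unadjusted p under 0.05 and 0 passed with voom, with a median change of -0.03. The smallest p belonged to Nupr1 at -0.48 (adjusted p = 0.181) and Atf3 at 0.36 (adjusted p = 0.378), both transcription regulators of stressed cells.

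Growth control genes were split between 5 past the threshold and 3 tested genes that were not. Ccng1, cyclin G1, which takes part in feedback on Mdm2, had 68.4 and 73.8 FPKM in the mutants against 28.4, 23.3 and 28.2 FPKM in the controls. Its mean was 71.1 ± 3.78 FPKM (SD, n = 2) against 26.6 ± 2.85 FPKM (SD, n = 3), a change of 1.39 (SE 0.12). Epha2, a receptor tyrosine kinase for ephrins, had 16.8 and 13.8 FPKM in the mutants against 4.65, 5.01 and 3.76 FPKM in the controls, a change of 1.57 (SE 0.15). Plk2, a polo-like kinase of centriole duplication, had 109 and 98.0 FPKM in the mutants against 41.2, 60.3 and 53.3 FPKM in the controls, a change of 1.00 (SE 0.16). In each of these 3 genes the lower mutant stood well above the highest control.

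Rps27l, a ribosomal protein that is a paralog of Rps27 and stabilises p53, was the member with the highest level in every library. It had 205 and 248 FPKM in the mutants against 115, 146 and 102 FPKM in the controls, a change of 0.91 (SE 0.17), and the call was lost without control 1 or without control 3. Rps27 had 446 and 528 FPKM in the mutants against 340.1, 370.5 and 221 FPKM in the controls, with a change of 0.68 (adjusted p = 0.166), and no stretch of at least 95% identity over 100 bases joins the transcripts of these paralogs. Zmat3, a zinc finger protein that binds RNA and regulates splicing, had 7.99 and 7.94 FPKM in the mutants against 4.62, 3.82 and 4.02 FPKM in the controls. Its mutants were almost equal, the change was 0.80 (SE 0.12), and the call was lost without control 2 or without control 3.

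The remaining growth control genes showed little difference or overlapped. Fbxw7, which targets cyclin E and Myc for degradation, had 4.81 and 4.20 FPKM in the mutants against 3.84, 3.37 and 3.61 FPKM in the controls, a change of 0.26 (SE 0.13). Btg2, an antiproliferative cofactor of mRNA decay, had 19.5 and 18.0 FPKM in the mutants against 27.4, 19.6 and 15.9 FPKM in the controls, with the mutants inside the range of the controls and a change of -0.12 (SE 0.21). Plk3, a stress-responsive polo-like kinase, had 1.96 and 1.72 FPKM in the mutants against 1.18, 1.72 and 1.65 FPKM in the controls, with overlap and a change of 0.18 (SE 0.17). Ptprv, a tyrosine phosphatase, stayed below the filter at 0.247 to 0.448 FPKM and was not tested. Btg2 and Plk3 are also immediate early genes, which respond quickly to growth factors and to tissue handling. Among 10 tested immediate early genes the transcription factor Jun passed, with 24.5 and 20.2 FPKM in the mutants against 42.3, 38.2 and 39.5 FPKM in the controls, a change of -0.82 (limma adjusted p = 0.0215). The median of this list was -0.14, and voom called 1 of its genes lower. An unadjusted p under 0.05 was found in 5 of the 10, against 2421 of all 12838 genes. Both mutants lay below all controls in 4 and above them in 1, against 24.4% and 13.2% of all genes. The call of Jun was lost with no filter, on TPM, with the replicate block, with the male share and without either mutant.

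All 3 spindle genes lay above every control. Psrc1, a microtubule protein of the mitotic spindle, had 34.1 and 27.9 FPKM in the mutants against 12.2, 14.3 and 12.1 FPKM in the controls, a change of 1.20 (SE 0.13). Gtse1, which tracks microtubule ends and holds p53 in the cytoplasm, had 28.8 and 26.5 FPKM in the mutants against 12.1, 15.4 and 14.0 FPKM in the controls, a change of 0.95 (SE 0.13). Both were past the threshold, with the mutants well clear of the controls. Ckap2, a spindle pole protein with a consensus match in its promoter, had 31.3 and 34.2 FPKM in the mutants against 30.1, 25.3 and 26.9 FPKM in the controls, a change of 0.25 (SE 0.11) that missed the threshold. The comparison list of mitotic genes had no call. Of 16 proliferation genes 0 passed in limma, 1 had an unadjusted p under 0.05 and 0 passed with voom. The change was above 0 in 14 of the 16 genes and below 0 in 2, while it was above 0 in 4988 of all 12838 genes. Both mutants lay above all controls in 3, against 13.2% of all genes. Their median change was 0.13, and the smallest p belonged to Cdk1, the mitotic kinase, at 0.33 (adjusted p = 0.253) and to Cdc20, the activator of the anaphase ligase, at 0.29 (adjusted p = 0.303).

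**Figure D4:**
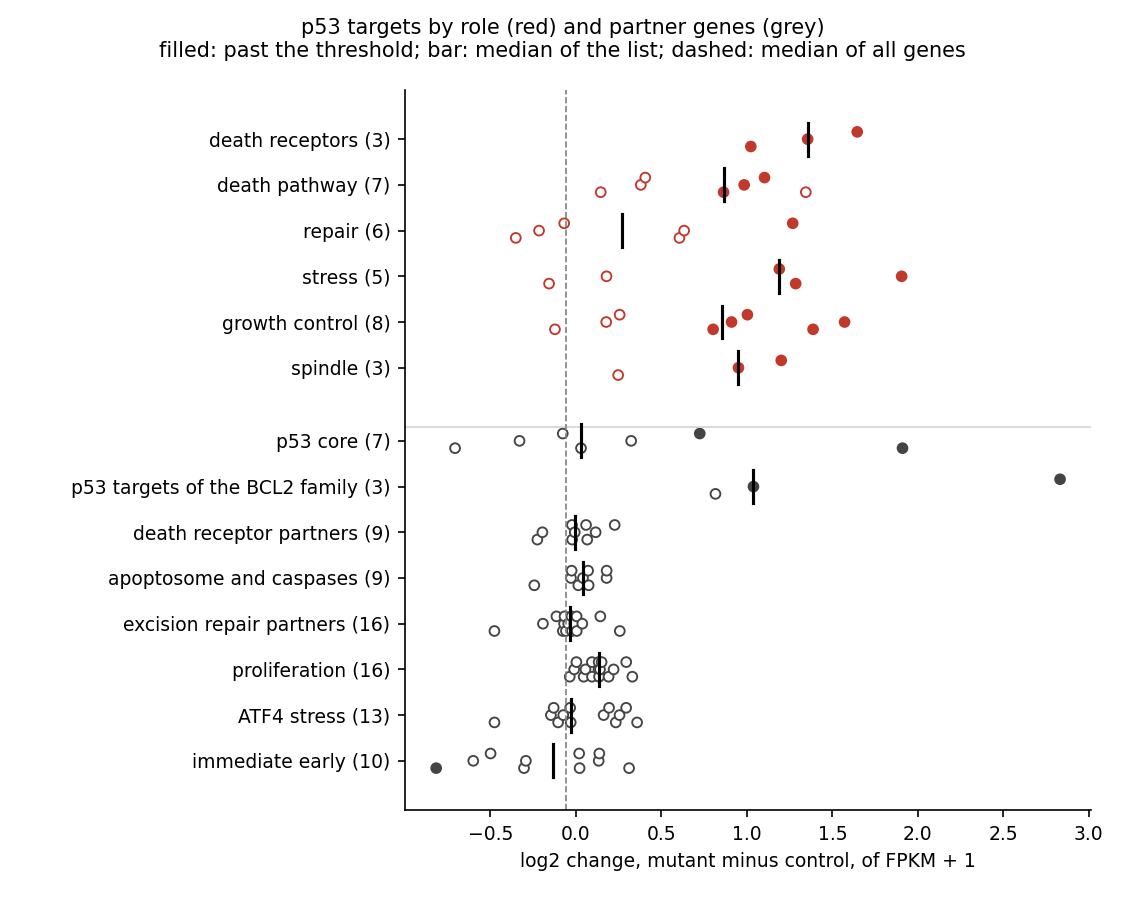
Log2 change of each tested gene (points, filled where past the threshold) for the 6 roles of p53 targets in red and 8 lists of partner genes in grey, with the number tested in brackets, a bar at each list's median and a dashed line at the median of all genes. The medians of the roles run from 0.27 (repair) to 1.36 (death receptors). No filled point lies in the caspase, excision repair, proliferation and ATF4 stress lists, nor in the death receptor partners, drawn without Eda2r.

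The regulators of p53 and its best known targets outside the list were compared on the same scale. Trp53, which encodes p53, had 55.7 and 45.8 FPKM in the mutants against 35.5, 45.5 and 40.1 FPKM in the controls, a change of 0.32 that missed the threshold (adjusted p = 0.277). Cdkn1a, the p21 inhibitor of cyclin-dependent kinases, rose from 13.3, 9.68 and 11.4 FPKM in the controls to 48.9 and 42.4 FPKM in the mutants, a change of 1.91 (adjusted p = 0.00618). Mdm2 rose from 12.1, 11.1 and 10.9 FPKM to 20.95 and 18.0 FPKM, a change of 0.72 (adjusted p = 0.0291). Of the BCL2 family targets, the killer proteins Pmaip1 and Bbc3 rose, with changes of 2.83 (adjusted p = 0.000667) and 1.04 (adjusted p = 0.0154), and Bax had a change of 0.82 (adjusted p = 0.0605). Pmaip1, like Gdf15, passed the filter only through the mutants. Leaving out either mutant, or using TPM, ended the calls of Cdkn1a, Mdm2 and Bbc3. The call of Mdm2 was also lost with no filter, with the male share, on replicates 1 and 2 with or without the block, and without control 2 or control 3, and that of Bbc3 with the male share or no filter.

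The called members were not of 1 size. Without Gdf15 the ratio of mean FPKM, mutant over control, ran from 1.87 to 4.51 with a median of 2.34; Eda2r had 4.51, Fas 3.84, Ccng1 2.67, Plk2 2.00 and Rps27l 1.87. Genes with few reads and genes with many were both among them, from 31 reads in a library (Fas) to 4800 (Plk2). For both genes these are the smallest reads that fit, since no annotated length settled them. Mutant 1 was above mutant 2 in 25 of the 32 tested members, near the 70.7% of all genes for which this was so. The 33 genes lie on 15 chromosomes. Exons of another gene overlap 6 of them, of which Ddb2 has the largest share, and 27 have no such overlap. Near copies of the transcript exist for 7, and 26 have none.

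**Figure D5:**
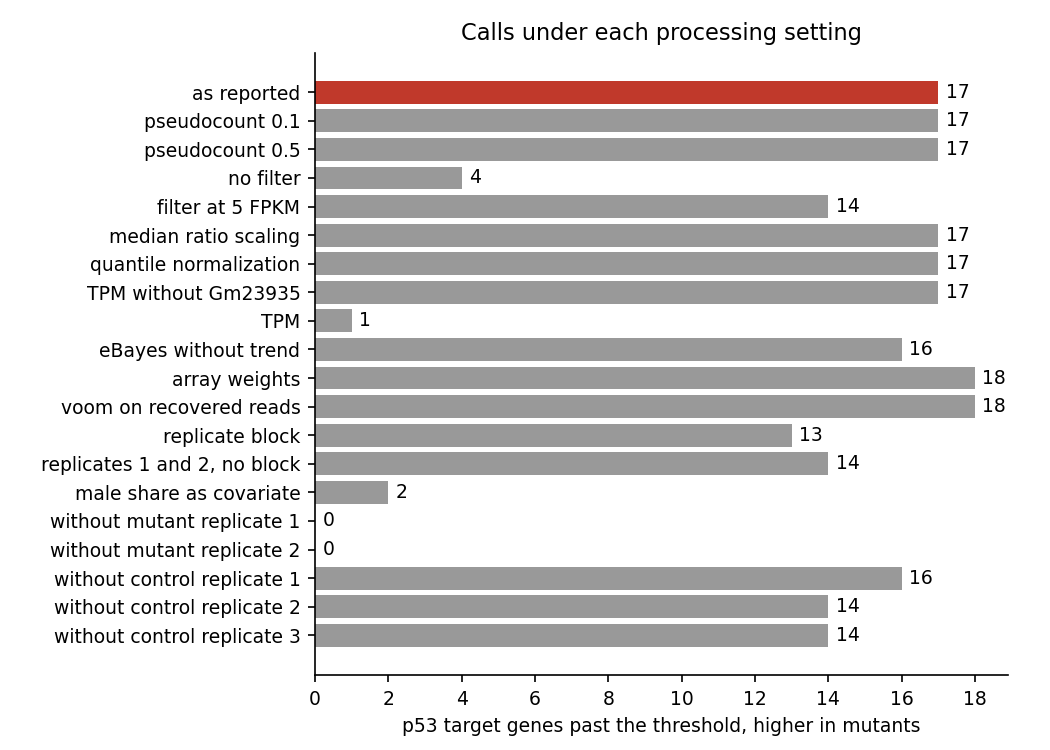
Number of p53 targets past the threshold and higher in the mutants (x axis) under each processing setting (rows), with the reported value of 17 in red. The count was 4 without a filter, 2 with the male share, 1 on TPM values and 0 without either mutant, and lay between 13 and 18 in every other setting drawn.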

How the data were processed

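RNA of 2 mutant and 3 control airway sections was sequenced. Libraries were prepared from 1.3 ug of total RNA after RNeasy purification (SMARTER mRNA-Seq kit), per the labels' protocols. The values are FPKM as the authors deposited them, a level per length of gene and per depth of library, in 1 table. The submitters' processing notes name GRCm38 (mm10) as the build. The sources used here name no aligner, counter, annotation or strand setting. The treatment field of the labels describes fat cells in culture, which are not embryos, and was not used. Groups and replicate numbers came from the labels.

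The 5 values of every entry (100% of 19699, relative tolerance 1e-10) were whole multiples of a single-read step. Reads per gene and per library were recovered from these steps. Exon lengths from GENCODE M21 settled the scale for 13965 entries. For the others the reads are the smallest whole numbers that fit, and could be too low by a whole factor. Among the members these are Fas, Tnfrsf10b, Perp, Ei24, Polk, Rrm2b, Sesn1, Plk2, Gtse1 and Ckap2. Of the library reads, 97.5% to 97.6% lay in listed genes. Depth intervals cover counting error only.

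The test was limma 3.58.1 in R 4.3.3 with lmFit and a trended eBayes, two-sided, on log2 of FPKM plus a pseudocount of 1, without covariates. A gene needed 1 FPKM in 2 libraries or more to be tested. The Benjamini-Hochberg adjustment ran over all 12838 genes, with a threshold of 0.05. Voom on the recovered reads was an alternative. The steps were tested on simulated data. Gene positions, exon overlaps and near copies came from GENCODE M21, and promoters from RefSeq (GRCm38.p6).

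The members, their roles and the partner lists were chosen with earlier results of these data known. By the rule, all 33 members are named, with values per library where the groups did not overlap or the log2 change was at least 0.5 in size. Prmt5, Trp53, Cdkn1a, Mdm2, Xist, Ddx3y and Rps27 are named whatever they showed. Of each partner list the genes past the threshold are named (the 4 with the smallest p at most), or the 2 with the smallest p where none passed. Bax, St14, Myf5, Acp2, Fasl, Tnfsf10, Edar and Gm23935, and per-library values of the overlapping members, stand outside it and were chosen after their values were seen.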

Additional observations from a re-analysis of the deposited data

How the results depend on the processing

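With 2 mutants, the calls rest on both of them. The count of p53 targets past the threshold and higher in the mutants, 17 as reported, ran from 0 to 16 when 1 library was left out (0 without mutant 1, 0 without mutant 2). It was 4 with no filter on low values, 1 on TPM values and 2 with the male share of RNA in the fit. No member was called lower in any setting run. Over all genes, calls higher in the mutants numbered 40 with no filter, 10 on TPM, 243 with voom, 20 with the male share and 1 to 120 with 1 library left out. Calls lower numbered 29 with no filter, 117 with quantile normalization, 277 on TPM without the small-RNA entry Gm23935, 57 on TPM, 360 with voom, 35 with the male share and 3 to 164 with 1 library left out. The median log2 change of the members, 0.89 as reported, was 0.95 with a pseudocount of 0.1, 0.97 with median ratio scaling, 0.92 with quantile normalization, 0.86 on TPM without Gm23935, 0.36 on TPM, 0.96 with voom, 0.79 with the male share and 0.82 to 0.94 with 1 library left out. On TPM, where Gm23935 takes 25156 to 588384 of the deposited FPKM, the median of all genes moved from -0.06 to -0.59. The median of the repair genes became -0.24. On TPM without Gm23935 the median of all genes was -0.13. Why the level of Gm23935 differed between libraries was not tested. Whether the replicate numbers pair the libraries could not be told. Deviations from the group means gave an r of -0.07 for number 1 and 0.02 for number 2. With 2 mutants the deviations of 1 mirror those of the other, so these values cannot decide it. With the replicate block, which uses replicates 1 and 2 of each group, 13 members were called and the median was 0.84; without the block the same 4 libraries gave 14 and 0.84. Of the 17 called members, 13 were called whichever control was left out. Depth limits Gdf15 and Ptprv most. The fit on replicates 1 and 2 without the block and the promoter search at other mismatch limits were chosen after seeing the data.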
